A study of Mus musculus with 6 samples.

Results

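Cells make cholesterol from acetyl-CoA. Enzymes of the mevalonate pathway build isoprenoid units, which are joined to squalene and closed to lanosterol, and a further series of enzymes trims lanosterol to cholesterol. Fatty acid synthesis starts from the same acetyl-CoA, through malonyl-CoA, palmitate, elongation and desaturation. Both routes are switched on by the sterol regulatory element-binding proteins, membrane-bound transcription factors that Scap escorts to the Golgi for cleavage and that the Insig proteins hold back in the endoplasmic reticulum when sterols are plentiful. SREBP2, from Srebf2, acts mainly on sterol genes and SREBP1, from Srebf1, mainly on fatty acid genes. Growth plate chondrocytes need sterols for membrane and for the hedgehog pathway, in which Hedgehog ligands carry cholesterol and sterols act on Smoothened.

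The genes described here are 34 of the 24346 measured: 8 of the mevalonate steps, 12 of the sterol steps, 6 regulators and carriers, and 8 of the fatty acid branch. They were chosen by symbol from the textbook pathway and with earlier values of the mutant against control comparison in view, so their differences between the groups, fold changes and calls are a description of these libraries and support nothing further. The RNA came from the mandibular condylar cartilage, the growth cartilage of the jaw joint. The 3 control libraries came from mice labelled fl/fl, the usual sign for a floxed gene, and the 3 mutant libraries from mice with Ihh, the gene of Indian hedgehog, deleted in craniofacial neural crest cells. The Cre driver, the age and the sex of the mice, any treatment, the part of Ihh that was removed, and whether a library is 1 animal or a pool are not stated in the labels, which also speak of 2 mutant groups without telling them apart. The p-values therefore measure only the spread between these libraries, which may be technical.

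The values are FPKM, fragments scaled by transcript length and by library depth. Values are given in the order of replicates 1, 2 and 3. Log2 fold changes are mutant minus control on log2(FPKM + 1), from 1 limma fit over 18715 genes, and a gene is said to have risen or fallen where its Benjamini-Hochberg adjusted p over all these genes was below 0.05. Depth relative to control 1 was 0.993 to 1.33 in the other libraries, and the absolute depth is unknown. Olfactory receptor genes, which should be silent here, had a 90th percentile of 6.49 to 8.69 FPKM, so values of a few FPKM lie in the range of background. Ihh measured 2.51 to 3.74 FPKM in controls and 2.18 to 2.66 FPKM in mutants, and its difference did not pass the test, while its target gene Gli1 fell from 7.10 to 9.53 FPKM to 0.168 to 0.807 FPKM. The cartilage markers Acan (27.2 to 33.1 FPKM in controls) and Col2a1 (88.5 to 158.9 FPKM) were present in every library. Xist was at 29.5 and 29.2 FPKM in controls 1 and 2 and at 0.577 to 0.984 FPKM in control 3 and all mutants, so controls 1 and 2 differ in sex from the other 4 libraries.

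Promoter windows, from 250 bases before to 50 bases after a start site, were found in the RefSeq tables (GRCm38) for 28 of the 34 genes. There were none for Fdps, Fdft1, Sqle, Stard4, Scd1 and Scd2. Each was searched on both strands for 4 motifs: the sterol regulatory element TCACNCCAC, bound by SREBPs, the E-box CACGTG, which SREBP1 can also bind, and the boxes of the SREBP partners NF-Y (CCAAT) and Sp1 (GGGCGG). No search for these letters was used to choose the genes. They were chosen as a textbook pathway under SREBPs, however, so the shares given below are not independent of that choice. Below, Hmgcs1 is shown for its whole sterol regulatory element, and Srebf2 and Msmo1 for the element without its last base. Insig1, chosen after its values were seen, is shown for an E-box in a stretch that also holds NF-Y and Sp1 boxes. Hsd17b7 and Sc5d, not printed, hold these boxes too. The printed stretches run 5′ to 3′ on the strand of the gene, and capitals mark matches on either strand, the shortened element included. The Hmgcs1 stretch is chr13:119690101-119690350 (plus strand), that of Srebf2 is chr15:82147019-82147180 (plus), that of Insig1 is chr5:28071162-28071362 (plus) and the Msmo1 site, cut to 24 bases, is chr8:64733740-64733763 (minus).

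Hmgcs1: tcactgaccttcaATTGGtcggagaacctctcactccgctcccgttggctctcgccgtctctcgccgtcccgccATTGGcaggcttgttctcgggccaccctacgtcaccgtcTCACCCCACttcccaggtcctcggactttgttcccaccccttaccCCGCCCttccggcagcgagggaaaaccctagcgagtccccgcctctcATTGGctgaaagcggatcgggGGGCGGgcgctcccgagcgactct
Srebf2: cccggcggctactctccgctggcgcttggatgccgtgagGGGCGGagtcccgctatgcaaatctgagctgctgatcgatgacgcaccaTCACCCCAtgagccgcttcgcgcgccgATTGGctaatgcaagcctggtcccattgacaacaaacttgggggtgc
Insig1: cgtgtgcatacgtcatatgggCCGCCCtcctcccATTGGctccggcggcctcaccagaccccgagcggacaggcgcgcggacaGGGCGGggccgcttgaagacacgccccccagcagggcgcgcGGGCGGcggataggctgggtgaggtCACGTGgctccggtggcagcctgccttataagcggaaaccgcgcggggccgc
Msmo1: cactattcTCACTCCAtccgcgca

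Counted from the RefSeq start site, the Hmgcs1 element TCACCCCAC begins at -137, between NF-Y boxes at -176 and -45. The shortened element begins at -162 in Srebf2 and at -177 in Msmo1, as TCACCCCA and TCACTCCA. The Msmo1 site lies in an exon of a longer transcript, inside the gene as GENCODE M21 places it, so only the site is printed. By that annotation it lies after the start of the gene, not before it. The Insig1 E-box begins at -101. NF-Y boxes were the most frequent match, in 24 of the 28 genes (85.7%), counted in any of a gene's windows. Counted likewise, they were in 42.1% of 14019 tested genes with a window and 41.1% of all genes with a window. Sp1 boxes were in 23 genes (82.1%, against 56.0% of tested genes and 38.2% of all genes) and E-boxes in 5 (17.9%, against 10.02% and 8.09%). The whole sterol element was in 1 gene (3.57%, against 1.498% and 1.44%) and the shortened one in 3 (10.7%, against 4.69% and 4.97%). Over the 250 bases before the start, the median GC content was 62.8% in the 28 genes and 57.2% in the tested genes, and its part in these shares was not tested. A match is a run of letters, not a shown binding site, and genes without one simply lack these letters in this window.

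Most of the pathway was lower in the mutants. Of the 34 genes 8 fell and 0 rose, where over all genes tested 0.465% fell and 0.775% rose. At an unadjusted p below 0.05, 21 were lower and 0 higher, against 6.11% and 7.94% of all genes tested. The 3 mutant values lay below all 3 control values in 24 genes, against 9.4% of all genes tested, and above all of them in 0 genes, against 9.77%. The other 10 genes overlapped between the groups. The median log2 fold change was -0.80 over the 34 genes and 0.00085 over all genes. It was -1.04 for the mevalonate steps, -0.79 for the sterol steps, -0.50 for the regulators and -0.89 for the fatty acid branch. Nothing is read from these counts, since the same comparison was in view when the genes were chosen. In bulk tissue, fewer cells of a type and less of the RNA in each cell cannot be told apart.

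**Figure D1:**
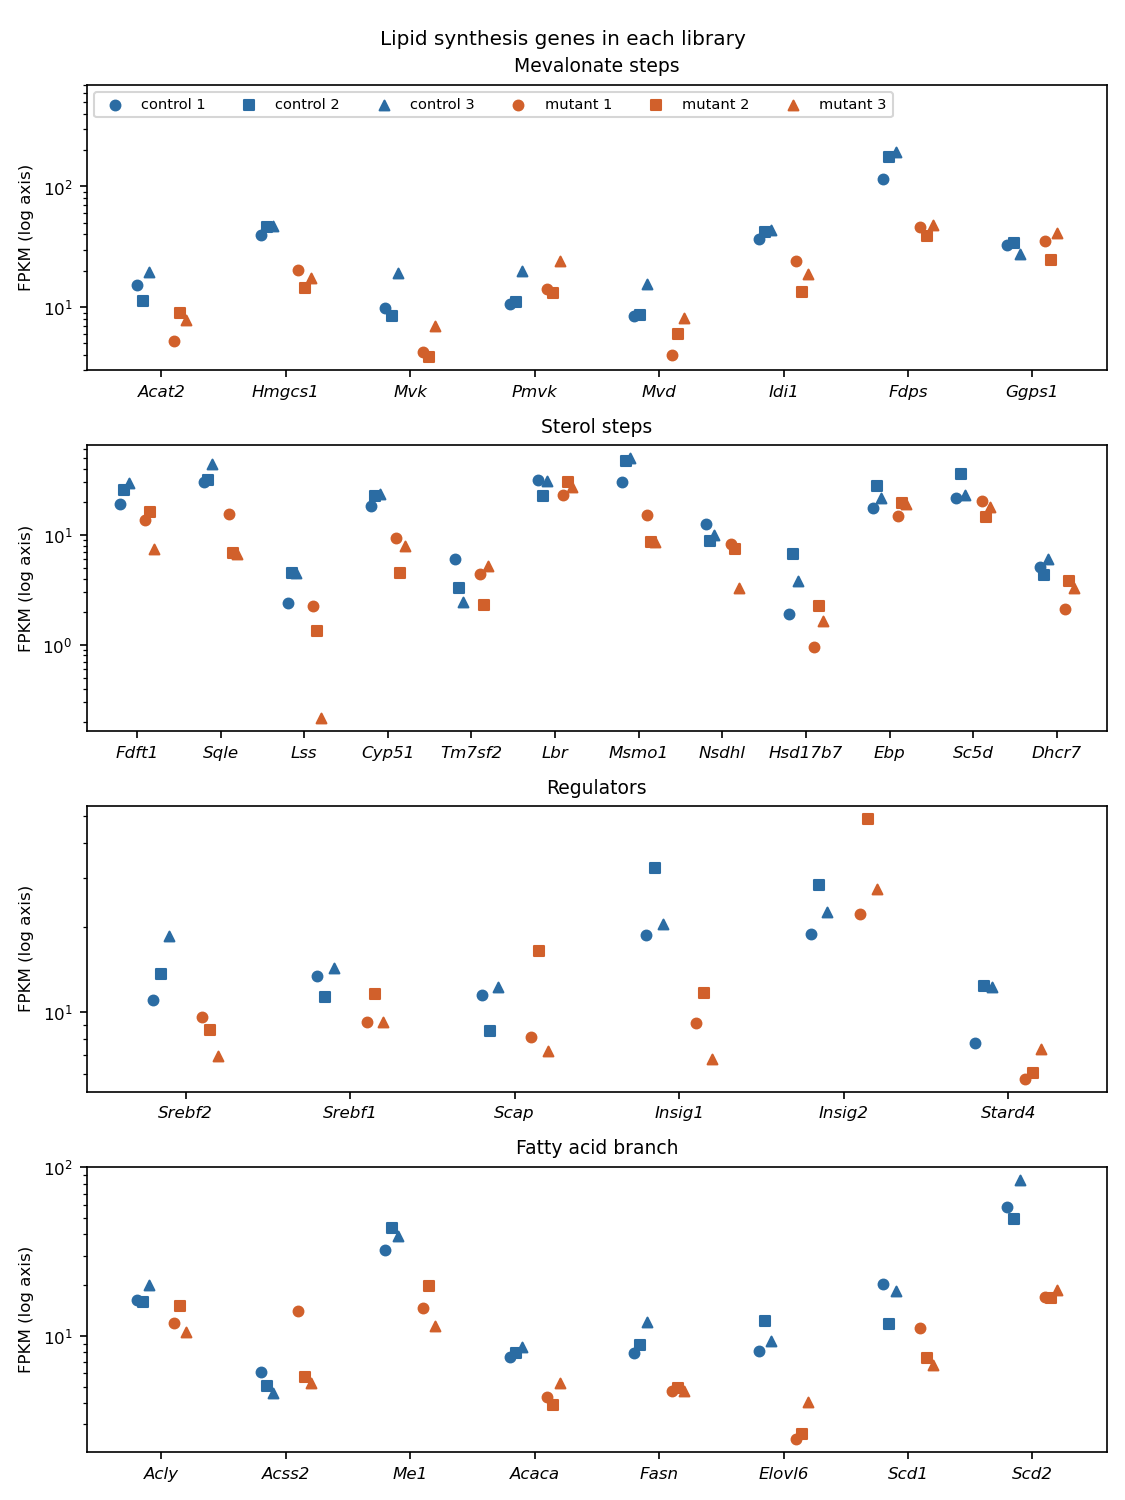
FPKM (log axis) of the 34 genes in each of the 6 libraries, in pathway order by branch; blue symbols are controls, orange symbols mutants, and the symbol shape gives the replicate number. Fdps, at 116 to 194 FPKM in controls and 39.1 to 47.7 FPKM in mutants, is the most abundant gene of the set in controls, and Pmvk, Ggps1, Tm7sf2, Lbr and Insig2 are among the genes whose groups overlap.

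The first enzymes of the mevalonate pathway were lower. Hmgcs1, the cytosolic synthase that makes HMG-CoA and whose promoter is printed above, had 39.7, 46.1 and 47.4 FPKM in the controls but 20.4, 14.4 and 17.3 FPKM in the mutants. The highest mutant lay well below the lowest control, and Hmgcs1 fell (log2 fold change -1.31 ± 0.20 SE, limma adjusted p = 0.0251). Acat2, the cytosolic thiolase that joins acetyl-CoA units, gave 15.3, 11.2 and 19.6 FPKM in control libraries and 5.22, 8.99 and 7.77 in mutant ones. Its groups did not overlap, but it did not pass the test (-0.97 ± 0.28), and 39.1% of the 50-base words of its transcripts also occur in Acat3, so reads could be split between them.

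The kinases that follow had fitted differences of opposite sign. Mvk, which phosphorylates mevalonate, was at 9.82, 8.47 and 19.2 FPKM in controls, against 4.22, 3.89 and 6.93 in the mutants. Pmvk, which adds the next phosphate, had 10.6, 11.05 and 19.9 FPKM in the controls but 14.2, 12.98 and 23.9 FPKM in the mutants. In both genes library 3 was the highest of its group, and only in Mvk did the groups separate. Neither passed the test (-1.12 ± 0.34 for Mvk and 0.29 ± 0.31 for Pmvk). Mvd, the decarboxylase that ends this stretch, gave 8.51, 8.57 and 15.5 FPKM in control libraries and 4.04, 5.97 and 8.07 in mutant ones, again without passing (-0.75 ± 0.32).

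Idi1 interconverts the isoprenoid units, and Fdps joins them to farnesyl diphosphate, the branch point between sterols and other isoprenoids. Idi1 was at 36.9, 41.6 and 43.4 FPKM in controls, against 24.1, 13.3 and 18.9 in the mutants (-1.11 ± 0.24, adjusted p = 0.0623), without overlap. Fdps had 116, 174 and 194 FPKM in the controls but 46.4, 39.1 and 47.7 FPKM in the mutants. The mutant mean of Fdps was 27.5% of the control mean, and Fdps fell (-1.81 ± 0.23, limma adjusted p = 0.0157). Ggps1, which takes farnesyl diphosphate away from sterols to geranylgeranyl diphosphate for protein prenylation, gave 32.5, 33.995 and 27.5 FPKM in control libraries and 35.4, 24.6 and 41.5 in mutant ones, with overlapping groups (0.08 ± 0.23).

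At the entry to sterols, Fdft1 makes squalene and Sqle oxidises it, a step known to limit the flux. Fdft1 was at 18.9, 25.7 and 29.7 FPKM in controls, against 13.8, 16.1 and 7.38 in the mutants (-0.98 ± 0.30), separate but short of the threshold, and its exons overlap those of Ctsb on the opposite strand over a stretch that unstranded libraries cannot assign. Sqle had 30.1, 31.4 and 44.4 FPKM in the controls but 15.4, 6.84 and 6.76 FPKM in the mutants. Mutants 2 and 3 lay below mutant 1, and Sqle fell to 27.3% of the control mean (-1.84 ± 0.32, limma adjusted p = 0.0370). Its values in mutants 2 and 3 were in the background range. Lss, which closes squalene epoxide to lanosterol, was at 2.39, 4.46 and 4.53 FPKM in controls, against 2.28, 1.33 and 0.216 in the mutants (-1.15 ± 0.44). As the smallest whole numbers that match the spacing of its values, this was 113 fragments in controls and 36 in mutants, a depth-scaled ratio of 0.326 with an exact 95% interval from 0.217 to 0.478 that covers counting error only, and mutant 3 held 2 of the 36.

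The demethylation of lanosterol held the lowest mutant to control ratio of the set. Cyp51, the lanosterol demethylase, gave 18.5, 22.8 and 23.7 FPKM in control libraries and 9.42, 4.47 and 7.96 in mutant ones, and fell (-1.50 ± 0.28, limma adjusted p = 0.0441). In mutants 2 and 3 Cyp51 was in the background range. Msmo1, the methyl oxidase that acts further along, was at 30.6, 46.8 and 49.8 FPKM in controls, against 15.1, 8.60 and 8.58 in the mutants. Mutant 1 was again the highest mutant, as for Sqle and Cyp51, and the Msmo1 mean fell to 25.4% of the control mean (-1.90 ± 0.28, limma adjusted p = 0.0245). Nsdhl and Hsd17b7, its partners in removing the methyl groups, did not pass. Nsdhl had 12.5, 8.71 and 9.88 FPKM in the controls but 8.32, 7.49 and 3.28 FPKM in the mutants (-0.69 ± 0.33), while Hsd17b7 was at 1.91, 6.74 and 3.83 FPKM in controls, against 0.958, 2.26 and 1.66 in the mutants (-0.89 ± 0.42), within the background range in all 6 libraries.

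Lbr and Tm7sf2 encode enzymes that can each reduce the same sterol double bond, Lbr being also a protein of the inner nuclear membrane. Lbr gave 31.4, 22.6 and 30.8 FPKM in control libraries and 23.1, 30.5 and 27.0 in mutant ones (-0.06 ± 0.21). Tm7sf2 was at 6.02, 3.31 and 2.47 FPKM in controls, against 4.39, 2.28 and 5.19 in the mutants (0.02 ± 0.38), and as fragments 23 in controls and 23 in mutants, with a ratio of 1.02 and an exact 95% interval from 0.548 to 1.91. Both overlapped between the groups, and the interval of Tm7sf2 covers changes of nearly 2-fold either way.

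The last enzymes had smaller fitted differences than Sqle, Cyp51 and Msmo1. Ebp, the sterol isomerase, had 17.7, 27.8 and 21.5 FPKM in the controls but 14.98, 19.6 and 18.9 FPKM in the mutants (-0.29 ± 0.23). Sc5d, the desaturase after it, gave 21.5, 35.7 and 23.0 FPKM in control libraries and 20.1, 14.5 and 17.8 in mutant ones (-0.56 ± 0.25). Dhcr7, which makes cholesterol from its last precursor, was at 5.07, 4.30 and 6.01 FPKM in controls, against 2.14, 3.78 and 3.29 in the mutants (-0.60 ± 0.29). None of the 3 passed the test, and the difference between these steps was not tested. Ebp and Nsdhl are X-linked, and in both genes control 3 lay between controls 1 and 2, the libraries with Xist.

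**Figure D2:**
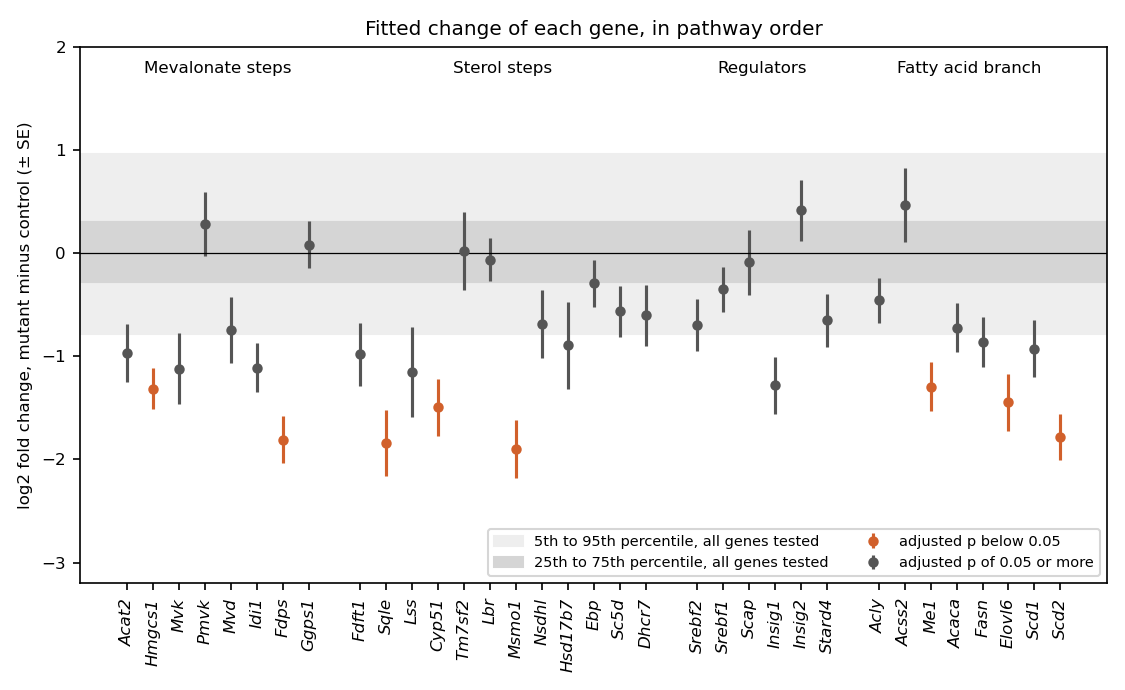
Fitted log2 fold change (mutant minus control, on log2(FPKM + 1)) of each gene in pathway order with its standard error; orange points had an adjusted p below 0.05, and the grey bands give the percentiles of all 18715 genes tested. The 8 orange points lie between -1.90 (Msmo1) and -1.30 (Me1), while Pmvk, Ggps1, Tm7sf2, Insig2 and Acss2 lie above 0.

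Insig1 and Insig2, which hold SREBPs in the endoplasmic reticulum, had fitted differences of opposite sign. Insig1, itself a target of SREBPs, had 18.8, 32.4 and 20.6 FPKM in the controls but 9.14, 11.6 and 6.76 FPKM in the mutants, without overlap (-1.28 ± 0.28, adjusted p = 0.0646). Insig2, which is not induced in the same way, gave 18.9, 28.3 and 22.7 FPKM in control libraries and 22.3, 48.6 and 27.3 in mutant ones (0.42 ± 0.30). Within a library the ratio of Insig1 to Insig2 was 0.998, 1.15 and 0.906 in controls and 0.409, 0.239 and 0.247 in mutants, so that every mutant lay below every control. Neither gene passed the test by itself, and the ratio was formed after both patterns had been seen.

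The transcription factor genes had fitted differences closer to 0 than Fdps, Sqle or Scd2. That of Srebf2 was near those of Mvd (-0.75) and Acaca (-0.72). Srebf2 was at 11.004, 13.6 and 18.6 FPKM in controls, against 9.59, 8.63 and 6.96 in the mutants (-0.69 ± 0.25). Srebf1 had 13.4, 11.3 and 14.3 FPKM in the controls but 9.20, 11.6 and 9.19 FPKM in the mutants (-0.35 ± 0.22), where mutant 2 lay above control 2. Scap, their escort, gave 11.5, 8.55 and 12.2 FPKM in control libraries and 8.16, 16.5 and 7.22 in mutant ones (-0.09 ± 0.32). None passed, and RNA levels do not show how much of the factors was cleaved. Stard4, a carrier that moves cholesterol between membranes, was at 7.77, 12.4 and 12.2 FPKM in controls, against 5.77, 6.05 and 7.37 in the mutants, separate but short of the threshold (-0.65 ± 0.25).

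The fatty acid branch starts with the enzymes that supply acetyl-CoA and reducing power. Acly, which splits citrate, had 16.4, 15.9 and 20.1 FPKM in the controls but 11.9, 15.1 and 10.6 FPKM in the mutants (-0.46 ± 0.22). Acss2, the enzyme for acetate, gave 6.10, 5.07 and 4.58 FPKM in control libraries and 14.1, 5.74 and 5.28 in mutant ones (0.47 ± 0.36), where mutant 1 alone stood high. In whole fragments mutant 1 held 53 of the 100 in mutants, against 65 in controls. Me1, the malic enzyme that yields NADPH, was at 32.2, 43.4 and 39.4 FPKM in controls, against 14.7, 19.7 and 11.4 in the mutants. Its groups lay far apart, and Me1 fell (-1.30 ± 0.24, limma adjusted p = 0.0426).

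The synthesis of palmitate itself runs through Acaca, which makes malonyl-CoA, and Fasn. Acaca had 7.49, 7.94 and 8.59 FPKM in the controls but 4.34, 3.87 and 5.23 FPKM in the mutants (-0.72 ± 0.24). Fasn gave 7.94, 8.78 and 12.1 FPKM in control libraries and 4.73, 4.88 and 4.68 in mutant ones (-0.86 ± 0.24), with an SD of 0.106 FPKM over the 3 mutants. Both separated without passing the test. At these levels Acaca lay below the 90th percentile of the olfactory receptors in 5 of 6 libraries and Fasn in 3.

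Within the branch, Scd2 and Elovl6 had the largest fitted differences, followed by Me1. Elovl6, which lengthens palmitate, was at 8.12, 12.3 and 9.38 FPKM in controls, against 2.43, 2.62 and 4.02 in the mutants, and fell (-1.45 ± 0.28, limma adjusted p = 0.0486), with all 3 mutant values in the background range. Scd2, a desaturase that makes monounsaturated fatty acids, had 58.2, 49.7 and 84.5 FPKM in the controls but 17.01, 16.7 and 18.8 FPKM in the mutants. Scd2 fell to 27.2% of the control mean (-1.78 ± 0.23, limma adjusted p = 0.0157). Scd1, its paralog, gave 20.4, 11.8 and 18.5 FPKM in control libraries and 11.1, 7.38 and 6.70 in mutant ones (-0.92 ± 0.28), short of the threshold, and 4.56% of its 50-base words occur in other genes, Scd3 foremost. Within a library the ratio of Scd2 to Scd1 was 2.85, 4.21 and 4.57 in controls and 1.53, 2.26 and 2.80 in mutants, where mutant 3 came close to control 1.

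Reads of several members could be shared with other genes, which makes their values less certain. Of the 50-base words of the transcripts, 30.4% for Acaca, 28.3% for Me1, 26.5% for Fdft1, 26.2% for Fdps, 25.3% for Idi1 and 11.6% for Hmgcs1 also occur in other annotated transcripts, mostly those of Gm5182, Gm7049, Ctsb, Gm43738, Gm13502 and Gm48342. Tm7sf2 shared 9.87% with Vps51, whose exons overlap its own on the same strand over 532 bases. Fdps likewise overlaps Gm43738 on the same strand, over 1124 exon bases. Lbr, Srebf1 and Scd2 overlap an rRNA or microRNA gene on the same strand, over 69, 66 and 61 bases. Exons of Hmgcs1, Idi1, Ggps1, Fdft1, Lss, Cyp51, Lbr, Srebf1, Scap, Acss2, Me1 and Elovl6 overlap a gene on the opposite strand, over 30 bases in Me1 and 34 bases in Elovl6 and over more in the others, and unstranded libraries cannot assign reads there. Sqle, Msmo1 and Fasn shared under 1% of their words. For the 5 mevalonate and sterol genes that fell, GENCODE M21 (GRCm38) places Hmgcs1 at chr13:119690379-119708260 and Fdps at chr3:89093588-89101959. It places Sqle at chr15:59315077-59331192, Cyp51 at chr5:4081145-4104746 and Msmo1 at chr8:64718139-64733792.

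The level of the genes in controls, which FPKM makes comparable between genes of different length, ran from 161 ± 40.6 FPKM (SD, n = 3) for Fdps through 64.2 ± 18.2 for Scd2, 44.4 ± 4.10 for Hmgcs1, 42.4 ± 10.4 for Msmo1 and 40.6 ± 3.38 for Idi1. Fdps stood above every other gene in each control, whereas Hmgcs1, Msmo1 and Idi1 overlapped within their spread. Lss (3.79 ± 1.22 FPKM), Tm7sf2 (3.93 ± 1.86 FPKM) and Hsd17b7 (4.16 ± 2.43 FPKM) were the lowest and did not differ beyond theirs. Lss, Tm7sf2, Hsd17b7 and Dhcr7 were below the olfactory 90th percentile in all 6 libraries.

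Other genes of sterol and fatty acid metabolism were listed by role, again with earlier results in view. Of 56, 2 fell and 0 rose, where 0.465% and 0.775% of all genes tested did. At an unadjusted p below 0.05, 9 were lower and 9 higher (6.11% and 7.94% of all genes tested). The median log2 fold change of the 56 was 0.02. Tmem97, a sterol-responsive membrane protein, fell from 89.7, 121 and 111 FPKM in controls to 34.7, 43.8 and 43.4 FPKM in mutants (-1.38 ± 0.19, limma adjusted p = 0.0209). Fads2, a desaturase of polyunsaturated fatty acids, fell from 27.3, 26.9 and 31.4 FPKM to 9.65, 11.1 and 11.7 FPKM (-1.32 ± 0.19, limma adjusted p = 0.0230). Both are known SREBP targets. Its neighbour Fads1 was at 28.7, 39.6 and 55.3 FPKM in controls, against 15.9, 16.4 and 16.2 in the mutants, just short of the threshold (adjusted p = 0.0519).

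In the sterol transport list 13 of 17 log2 fold changes were above 0, with a median of 0.33. There 0 rose and 1 (Tmem97) fell, against 0.775% and 0.465% of all genes tested. Apoe, a lipoprotein component, had 31.7, 27.7 and 63.1 FPKM in the controls but 135, 156 and 89.1 FPKM in the mutants (1.66 ± 0.33, adjusted p = 0.0519). Of the 8 genes that process or hold SREBPs 0 passed, with Erlin2 (0.66 ± 0.27) and Rnf139 (0.54 ± 0.24) nearest. The 10 users of isoprenoids had a median of -0.10, with Fntb (-0.56 ± 0.26) and Fnta (0.43 ± 0.21), the subunits of farnesyltransferase, nearest and opposite in sign. The 5 genes of NADPH supply outside Me1 had a median of -0.37, with Tkt (-0.43 ± 0.21) and G6pdx (-0.45 ± 0.24) nearest.

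**Figure D3:**
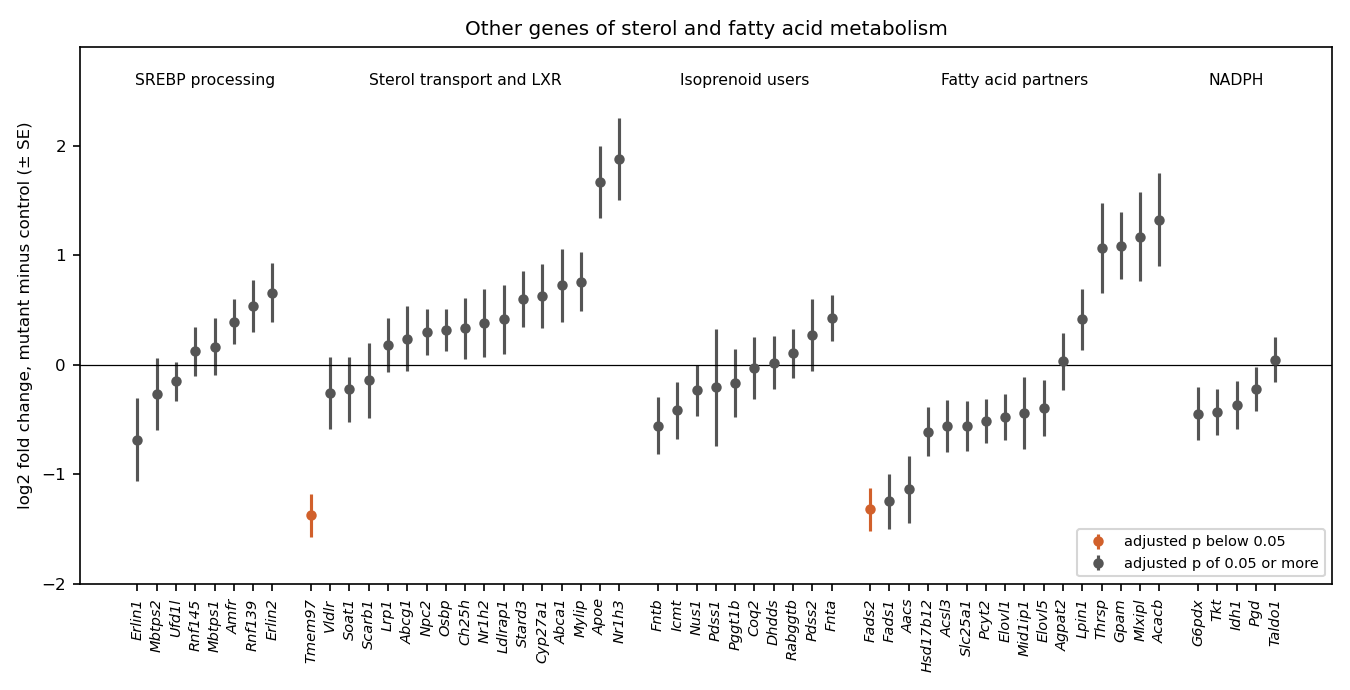
Fitted log2 fold change (mutant minus control, on log2(FPKM + 1)) with its standard error of 56 other genes of lipid metabolism, ordered by value within 5 lists; orange points had an adjusted p below 0.05. Tmem97 (-1.38) and Fads2 (-1.32) are the 2 orange points, and Apoe (1.66) and Nr1h3 (1.88) lie highest.

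The cartilage and cell cycle lists were lower in the mutants, as the lipid genes were, and the skeletal muscle and endothelial lists were higher. Over the 20 mevalonate and sterol genes, the mean of log2(FPKM + 1) was 4.08 to 4.41 in controls and 3.30 to 3.47 in mutants, and over the fatty acid branch 3.96 to 4.16 and 3.07 to 3.26. The cartilage list was at 4.82 to 5.17 in controls and 3.54 to 4.05 in mutants, with 5 of 11 genes falling, and the cell cycle list at 4.81 to 4.98 and 3.55 to 4.40, with 2 of 16 falling. Skeletal muscle genes were at 6.14 to 7.09 in controls and 7.95 to 9.05 in mutants, with 8 of 16 rising, and endothelial genes at 3.24 to 3.81 and 4.41 to 4.63, with 3 of 10 rising. Over all genes tested 0.465% fell and 0.775% rose. With the muscle mean as a covariate the median of the 34 genes was -1.05, and with the cell cycle mean it was -0.72, with 0 genes called in both fits, in which 2 and 4 genes were called in all. Each of these means separated the groups fully, so the fits can hardly tell group from covariate. Nothing is read from these medians.

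Cell types that make much lipid were looked for by their own markers. Adipocyte genes had 10 of 12 log2 fold changes above 0, with 1 rising (Plin4), where 0.775% of all genes tested rose. They summed to 91.9 to 356 FPKM in controls and 351 to 761 FPKM in mutants, with mutant 3 below control 3. Most of this sum was Fabp4, a fatty acid binding protein that endothelial cells also make, at 61.5 to 291 FPKM in controls and 293 to 669 FPKM in mutants. Adipoq, their defining hormone, was at 0.679 to 10.2 FPKM in controls and 3.22 to 16.3 FPKM in mutants, and Plin1 at 0.848 to 4.11 and 1.20 to 4.64 FPKM. Schwann cell genes summed to 202 to 271 and 195 to 332 FPKM, most of it Pmp22, with 0 of 9 passing. Skin and sebaceous genes summed to 14.7 to 27.1 and 15.8 to 26.9 FPKM, with 0 of 6 passing. Macrophage genes summed to 74.5 to 114 and 70.2 to 165 FPKM, with 0 of 10 passing. The part of these cell types in the lipid values was not tested.

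**Figure D4:**
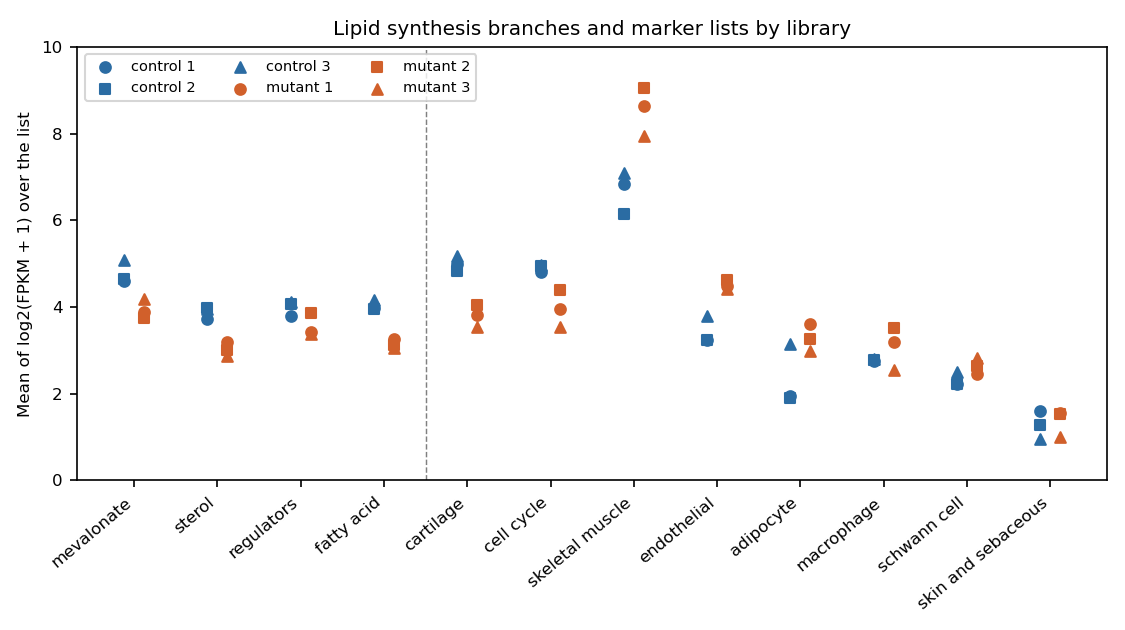
Mean of log2(FPKM + 1) over each list in each library, with the 4 lipid branches left of the dashed line and the marker lists right of it; blue symbols are controls, orange symbols mutants, and the shape gives the replicate number. The mevalonate, sterol and fatty acid branches and the cartilage and cell cycle lists are lower in all mutants than in all controls, and the skeletal muscle and endothelial lists are higher in all mutants.

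The 8 calls rested on all 6 libraries. Fdps alone kept its call without control 1 and without mutant 2, Scd2 alone without control 2, Fdps and Scd2 without control 3, Sqle and Msmo1 without mutant 1, and 6 of the 8 without mutant 3. Set against the 3 mutants, control 3, the only control of their sex, gave a median log2 fold change of -1.08 over the 34 genes, with 0 called and 5 called among all genes. That fit takes the spread from the mutants and assumes that the lone control varies like them.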

How the data were processed

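Total RNA from condylar cartilage was sequenced in 3 control and 3 mutant libraries, grouped by their titles. SMART-Seq HT and Nextera libraries, per the labels' protocols, do not keep strand. The authors deposited 1 table per library, taken as FPKM because Cufflinks 2.2.1, a tool that gives this unit, is listed with mm10, beside SAMtools 0.1.19, TopHat2 2.0.13 and Bowtie2 2.2.3, per the submitters' processing notes. The file headers name neither unit nor annotation, and depth is unknown beyond ratios.

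Genes reaching 1 FPKM in 3 or more libraries were fitted on log2(FPKM + 1) with limma 3.58.1 (R 4.3.3; trend, robust, group only), Benjamini-Hochberg adjusted, after the fit was tested on simulated data. Fold changes on this scale understate those of low genes. The members and lists were chosen with earlier results of these data known. All 34 members are named, of other lipid genes those called and the 2 with the smallest p per list, and of marker lists mainly the first 2. Genes named outside this rule, among them Plin4, Fabp4, Pmp22, Nr1h3, Abca1, Abcg1, Mylip, Gpam, Acacb and Mlxipl, were chosen after their values were seen. Cnmd was not in the tables.

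Relative depth came from the commonest ratio of low values. Whole fragments were the smallest numbers, up to 60, within 0.05 of a fragment in all 6 libraries, found for 7 members. Exon overlaps and 50-base words came from GENCODE M21 and promoters from RefSeq. Alternatives were other scalings, pseudocounts and filters, covariates, a replicate block and leaving out libraries. Same-numbered libraries did not deviate together (correlations of -0.016 to 0.0063), so the numbers were not used as pairs.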

Additional observations from a re-analysis of the deposited data

How the results depend on the processing

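The 8 members called lower became 9 after quantile normalization (with Idi1), 10 with a filter at 5 FPKM (with Idi1 and Insig1), 4 when no low genes were filtered, 5 under a pseudocount of 0.1, 5 with moderation that was not robust, and 0 with the Xist, muscle or cell cycle covariate or, in a setting added after the data were seen, without controls 1 and 2. Leaving out 1 library gave 1 to 6. With the replicate block, 0 members, 0 of the other lipid genes and 2 genes in all were called, and of the same-numbered pairs control 1 and mutant 1 alone correlated best with each other, at 0.0063. The 232 genes called in all became 411 after quantile normalization, 133 without a filter, 440 with a filter at 5 FPKM, 2 with the Xist or muscle covariate, 4 with the cell cycle covariate, 5 without controls 1 and 2, and 13 to 414 with 1 library left out. The 2 other lipid genes called became 5, 2 and 4 under quantile normalization, no filter and the filter at 5 FPKM, 0 with the Xist, muscle or cell cycle covariate or without controls 1 and 2, and 0 to 3 with 1 library left out. The members' median of -0.80 was -1.08 without controls 1 and 2 and -1.05 to -0.71 elsewhere. The cause of these changes was not tested.

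Sign changes were seen in members that did not pass. The cell cycle and muscle means separated the groups fully, so fits with them can hardly tell group from covariate. With the cell cycle covariate the log2 fold change became -0.45 for Pmvk, -0.73 for Ggps1, -1.19 for Tm7sf2, 0.24 for Fdft1, 0.077 for Lbr, 0.25 for Nsdhl, 1.06 for Scap and 0.091 for Acly. With the muscle covariate it became 0.11 for Ebp and 0.23 for Sc5d. For Pmvk it was -0.24 with the Xist covariate and -0.26 without controls 1 and 2, and for Tm7sf2 -0.019 after quantile normalization. With 1 library left out it ran from -0.076 to 0.29 for Ggps1, -0.20 to 0.31 for Tm7sf2, -0.21 to 0.036 for Lbr and -0.43 to 0.12 for Scap. Searching only the bases before the start, the NF-Y box was in 82.1% of the 28 promoters. Few fragments, 23 per group for Tm7sf2, limit the precision of low members.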

Other observations

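The genes named here were chosen after their values were seen and, apart from the members Srebf1 and Acaca, lie outside the SREBP set. Nr1h3, the sterol-sensing receptor LXR-alpha, gave 0.873, 0.439 and 0 FPKM in control libraries and 3.19, 4.72 and 4.57 in mutant ones, with no overlap but within the background range of the olfactory receptor genes (limma adjusted p = 0.0521). Its targets Abca1, a cholesterol exporter, and Mylip, which marks lipoprotein receptors for breakdown, also lay higher in every mutant without passing the test. Abca1 measured 3.14 to 4.47 FPKM in controls and 4.78 to 11.1 FPKM in mutants, within the background range in 5 of 6 libraries. Mylip measured 7.32 to 9.98 and 11.6 to 21.5 FPKM. Abcg1, another target of Nr1h3, overlapped between the groups (2.61 to 3.75 and 3.29 to 5.16 FPKM), within the background range in all 6 libraries. The fitted log2 fold change of Srebf1, also a target, was -0.35. The targets named are not a full list.

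Of the 16 fatty acid partners, listed with earlier results in view, 10 had log2 fold changes below 0 and 6 above. At an unadjusted p below 0.05, 8 were lower and 4 higher, against 6.11% and 7.94% of all genes tested. The 3 that follow are among the 6 above 0. Gpam, the first enzyme of triglyceride synthesis, measured 2.45 to 4.23 FPKM in controls and 5.76 to 10.2 FPKM in mutants. Acacb, the acetyl-CoA carboxylase of muscle, measured 0.677 to 2.34 and 3.11 to 8.96 FPKM, against 7.49 to 8.59 and 3.87 to 5.23 FPKM for Acaca. Mlxipl, the carbohydrate-responsive factor ChREBP, measured 1.22 to 3.64 and 4.22 to 11.1 FPKM. None of these 3 passed (limma adjusted p of 0.136, 0.188 and 0.226). Each of the 3 lay below the 90th percentile of the olfactory receptors in 5 of 6 libraries. The muscle list was higher in every mutant than in every control, while the adipocyte list overlapped between the groups. The part of muscle and adipocytes in these values was not tested.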
